A study of Arabidopsis thaliana with 39 samples.

Results

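The subject is a set of 80 Arabidopsis thaliana genes whose root transcript level was higher than at time 0 at each of 3, 6 and 9 h, averaged over 4 media. They were taken from the 8234 array rows with exactly 1 gene and an overall mean of at least 3 on the log2 scale, in a table of 28501 rows. For each row the mean of the 12 arrays at each time was set against the mean of the 3 arrays at time 0, and the smallest of the 3 differences, here called the minimum rise, ranked the rows. GI, AT4G33980, AT1G56300, CHX16, PDC2, DPE1, AT1G04770, LPR2 and DREB2C were left out by the rule, although all 9 had a minimum rise above that of the last member. The level above time 0 therefore chose the genes and is given below as a description, without a test.

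The arrays held root RNA of wild-type Columbia-0 plants, kept for 10 days on full medium with 1 mM phosphate. There were 13 groups of 3 arrays, which were roots at time 0 and roots after 3, 6 and 9 h on medium lacking both phosphate and iron (both absent), lacking phosphate, lacking iron, or complete (full medium). All plants were of 1 genotype and began on full medium, and the labels do not say whether those kept on full medium were also moved or whether replicates were separate cultures. The p-values therefore measure the spread between these samples, which may be technical. A change over time also holds handling, hour of the day and age, which cannot be told apart with 1 time 0 group. In root RNA as a whole, more cells of a type and more RNA per cell cannot be told apart either.

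Moving seedlings between media handles the root and changes its surroundings, and much of the transcriptome also follows the hour of the day. Root cell walls hold proline-rich and glycine-rich proteins and class III peroxidases that cross-link wall polymers. Barrier layers of the root also hold the fatty acid polymer suberin, for which esterases and acyltransferases of the GDSL and HXXXD kinds act. Leucine-rich repeat receptor kinases at the plasma membrane read peptides and wall fragments and pass the signal to transcription factors such as the WRKY family.

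Array medians lay between 3.34 and 3.45, and the deposited values ran from 0.141 to 12.8. The label root was checked against root and shoot markers, but the annotation names few of them. EXPA7, an expansin of root hair cells and the 1 of 16 root markers on a named row, was detected at 5.13 to 6.18 at time 0. At 3, 6 and 9 h it stood at -0.42, -0.55 and -0.42 from time 0. Of 12 shoot markers 2 were on a named row. RCA, the activase of Rubisco, and LHCB4.1, a light-harvesting protein, were detected too, and both were high in the arrays numbered replicate 3. RCA averaged 7.95 in the replicate 3 arrays, 6.55 in replicate 1 and 6.45 in replicate 2. LHCB4.1 averaged 6.12, 4.84 and 4.59 in the same order. The mean of a set of 12 of the 80 genes followed these 2 markers, as described below. Single genes were not compared with them.

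All 80 genes matched RefSeq (assembly TAIR10.1, used for names and neighbours). A symbol of their own was held by 10, and 70 are known only by locus. Families given here come from general knowledge of the loci and were assigned after the genes were known. The minimum rise ran from 0.80 to 1.94 with a median of 1.04, against a median of -0.06 over all eligible rows. At 3, 6 and 9 h the median difference from time 0 was 1.18, 1.26 and 1.17 for the 80 genes and 0.02, -0.00 and 0.04 for the eligible rows. The median time 0 level of the 80 genes was 3.56, and 22 of them stood below 3 at time 0 and passed the minimum mean through their later arrays. The rule subtracts the time 0 level and so favours genes that were low there. All 12 group means after time 0 lay above the time 0 mean for 80 of 80 genes, by at least 0.5 in 67 and by at least 1 in 16. These levels also chose the genes, so nothing is read from the counts.

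**Figure D1:**
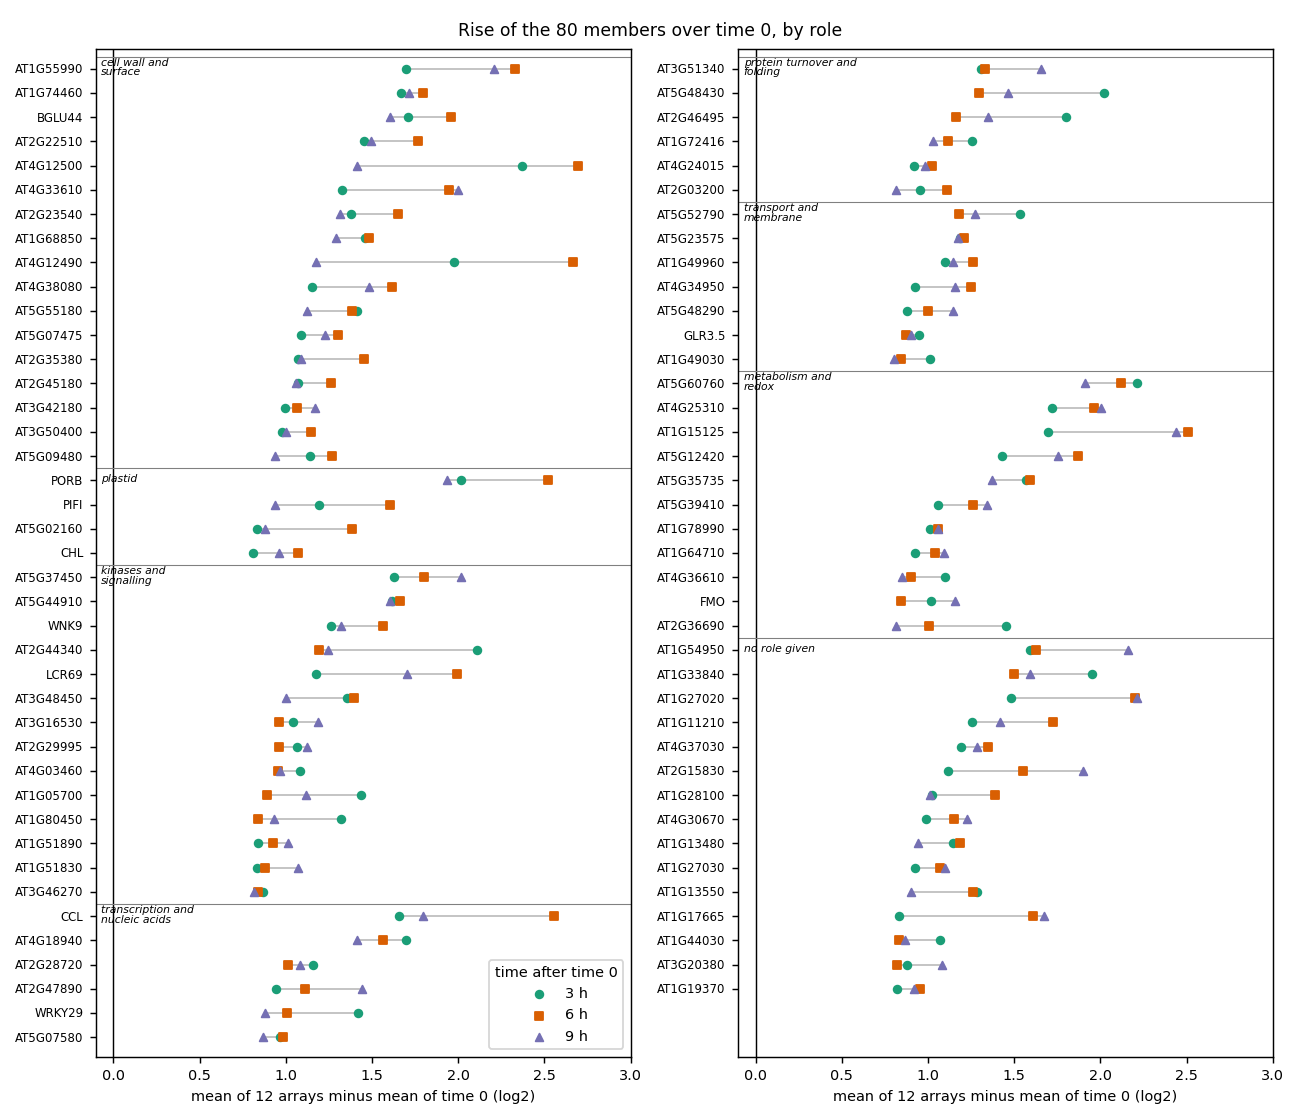
Difference from time 0 on the log2 scale for each of the 80 genes, as the mean of the 12 arrays at 3 h (circles), 6 h (squares) and 9 h (triangles) minus the mean of the 3 arrays at time 0, with genes grouped by role and ordered by their smallest difference. Every point lies at or above 0.80, because that is how the genes were chosen, and AT4G12490 and AT4G12500 show the widest gaps between times.

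In 22 of the 80 genes all 36 arrays after time 0 lay above all 3 arrays at time 0. Over the 8234 rows the share was 0.704%, and since the same levels chose the genes nothing is read from that contrast. The steadiest of the 22 was AT5G23575, a membrane protein of the CLPTM1 family, with a standard deviation between replicates of 0.157 pooled over the groups. Its 36 arrays after time 0 ran from 6.67 to 7.30 with a median of 6.94, and the time 0 arrays read 5.76, 5.93 and 5.57. Since these levels also chose the gene, nothing is read from the gap between the ranges. AT5G60760, a P-loop protein that resembles 2-phosphoglycerate kinase, ran from 4.46 to 6.70 with a median of 5.43 after time 0, against 3.52, 3.51 and 3.22 at time 0. It stood 2.21, 2.12 and 1.91 above time 0 at 3, 6 and 9 h, a fold of 4.63, 4.34 and 3.76. Its minimum rise was the highest after that of PORB, and unlike PORB its groups did not overlap.

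AT5G44910, which carries a TIR domain like those of plant immune receptors, lay between 5.49 and 6.58 after time 0 with a median of 5.90, and at 4.04, 4.79 and 4.06 at time 0. It was nearly level over the times, at 1.61, 1.66 and 1.61 above time 0. AT5G35735, a cytochrome b561 with a DOMON domain, a kind of protein that moves electrons across membranes, ran from 6.47 to 7.85 with a median of 6.99, against 5.09, 5.78 and 5.82 at time 0. The kinase gene WNK9 ran from 3.61 to 4.77 with a median of 4.23, against 2.83, 2.51 and 3.11. In none of these genes did a single array after time 0 reach the time 0 range.

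The defensin gene LCR69, for a small secreted peptide, ran from 7.13 to 9.47 with a median of 8.28 after time 0, against 6.59, 6.83 and 6.40 at time 0. It was lowest at 3 h, 1.17 above time 0, and stood at 1.99 and 1.70 at 6 and 9 h. AT2G44340, a protein with the VQ motif that binds WRKY factors, was highest at 3 h, at 2.11 above time 0, and stood at 1.19 and 1.25 at 6 and 9 h. The spread of single genes differed widely: the pooled standard deviation between replicates had a median of 0.558 over the 80 genes and of 0.236 over the 8234 rows, and reached 1.88 for AT4G12490. Whether the way the genes were chosen bears on this spread was not tested.

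Cell wall and surface proteins were the most numerous group, with 17 genes, and their median difference from time 0 was 1.38, 1.62 and 1.29 at 3, 6 and 9 h. AT1G55990, a glycine-rich protein, ran from 2.81 to 7.39 with a median of 5.15 after time 0, against 3.21, 3.15 and 2.93 at time 0, and 35 of the 36 arrays lay above time 0. AT1G74460, a GDSL esterase or lipase, ran from 3.43 to 7.54 with a median of 5.28, against 3.52, 3.92 and 3.24. The hydroxyproline-rich glycoprotein AT2G22510 ran from 3.52 to 7.66 with a median of 5.14, against 3.54, 4.54 and 3.08. These ranges overlapped those at time 0 at their lower ends. The class III peroxidase AT1G68850 stood 1.46, 1.48 and 1.29 above time 0, and AT2G35380, a second peroxidase of that class, stood 1.07, 1.45 and 1.09 above it. BGLU44, a beta-glucosidase, ran from 3.46 to 7.77 with a median of 5.06, against 2.82, 3.64 and 4.25 at time 0. Of the 17 genes, 14 had their highest time mean at 6 h, but without the arrays numbered replicate 3 only BGLU44, AT4G12490 and AT2G45180 did, 3 of 17, so that count rests on those arrays. Without replicate 1 or 2 it was 13 or 16. Only AT3G42180, of the exostosin family of glycosyltransferases, did not overlap between the groups.

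The neighbouring genes AT4G12490 and AT4G12500 on chromosome 4, with 1 protein-coding gene between them, encode lipid transfer proteins with a proline-rich start and are much alike in sequence, so that probes may not tell them apart. AT4G12500 ran from 1.78 to 7.12 with a median of 3.02 after time 0, against 0.91, 2.11 and 1.20. At 3, 6 and 9 h it stood 2.37, 2.70 and 1.41 above time 0, and AT4G12490 stood 1.97, 2.67 and 1.18 above it. They were the 2 genes of the 80 whose time means spanned more than 1. Their levels at time 0 were among the lowest of the set.

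The plastid group held 4 genes, all with their highest time mean at 6 h, also without the arrays of any 1 replicate number. PORB, which reduces protochlorophyllide in the light on the way to chlorophyll, had the highest minimum rise of all. After time 0 its arrays ran from 2.68 to 7.82 with a median of 4.06, against 2.26, 1.86 and 3.69 at time 0, and 24 of the 36 lay above all 3 time 0 arrays. PIFI, a chloroplast protein tied to electron flow after illumination, stood 1.19, 1.60 and 0.94 above time 0, and AT5G02160, a thylakoid protein, 0.83, 1.38 and 0.88. CHL, the chloroplast lipocalin, was the exception in spread. It ran from 3.53 to 5.0 with a median of 4.26, against 3.36, 3.43 and 3.33, with no overlap.

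Among the 14 genes of kinases and signalling were leucine-rich repeat receptor kinases, VQ motif proteins and a lectin. AT5G37450, such a receptor kinase, ran from 2.74 to 6.94 with a median of 5.07 after time 0, against 2.03, 4.95 and 2.64 at time 0. Replicate 2 at time 0 was high, and only 22 of the 36 later arrays lay above it. AT1G05700, of the same family, stood 1.43, 0.89 and 1.12 above time 0. AT1G51830 and AT1G51890 lie on chromosome 1 with 5 protein-coding genes between them, and stood 0.83 and 0.84 above time 0 at 3 h. AT2G29995, of a small family of tyrosine-sulfated signalling peptides, ran from 6.04 to 7.22 with a median of 6.32, against 5.20, 5.43 and 5.26, without overlap.

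The 6 transcription and nucleic acid genes included CCL, whose short-lived transcript is under clock control. It was placed here by that trait of its RNA, and not by a role of its protein. CCL ran from 3.20 to 8.14 with a median of 5.63 after time 0, against 3.64, 2.93 and 5.31 at time 0. Its differences were 1.65, 2.56 and 1.79, with the top at 6 h. WRKY29, a transcription factor of immune signalling, was highest at 3 h, with differences of 1.42, 1.00 and 0.88. AT2G47890, a B-box protein of the CONSTANS-like family, was highest at 9 h, with differences of 0.94, 1.11 and 1.44. Whether these times differ was not tested.

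Metabolism and redox held 11 genes. AT4G25310, an oxygenase that uses iron and oxoglutarate, ran from 4.12 to 5.31 with a median of 4.71 after time 0, against 2.11, 4.13 and 2.28, so that replicate 2 at time 0 lay apart from the other two. AT1G15125, a methyltransferase that uses S-adenosylmethionine, ran from 2.96 to 8.16 with a median of 5.22, against 2.77, 2.60 and 3.96. The wax ester synthase relative AT5G12420 ran from 3.61 to 7.83 with a median of 5.37, against 3.61, 4.04 and 3.60. The flavin monooxygenase FMO was lower in rank, with differences of 1.02, 0.84 and 1.16.

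Transport and membrane proteins numbered 7, among them GLR3.5, a glutamate receptor-like channel, at 0.95, 0.87 and 0.90 above time 0. The 6 genes of protein turnover and folding included the aspartyl proteases AT3G51340 and AT5G48430, the DnaJ protein AT1G72416 and the RING finger proteins AT2G46495 and AT4G24015, a class that attaches ubiquitin to other proteins. AT5G48430 stood 2.02, 1.29 and 1.47 above time 0. No role was given for 15 genes. Of these, AT1G54950 ran from 1.98 to 4.88 with a median of 3.51, against 2.03, 1.91 and 1.51 at time 0. AT1G33840 ran from 3.07 to 5.84 with a median of 4.72, against 2.54, 4.04 and 2.31. AT1G27020 ran from 4.53 to 7.31 with a median of 6.03, against 3.79, 3.81 and 4.53, and next to it AT1G27030, with no gene between them, stood 0.93 and 1.07 above time 0 at 3 and 6 h.

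Over the whole set the highest time mean was at 3 h in 21 genes, at 6 h in 37 and at 9 h in 22, and the lowest was at 3 h in 38, at 6 h in 15 and at 9 h in 27. The 3 time means lay within 0.3 of one another in 40 genes and spanned more than 0.5 in 21. The count at 6 h was 21 without the arrays numbered replicate 3 and 44 without those numbered replicate 1. At the edge of the set, AT2G03200, CHL and AT1G49030 entered with minimum rises of 0.81, 0.81 and 0.80, and AT1G11540, AT2G23910 and AT4G16563 stayed outside with 0.80, 0.80 and 0.79. The next ranks thus differ little from the last members.

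The 80 genes did not vary as 1 block. Each gene's values were taken as deviations from its group means and correlated between genes across the 39 arrays. By these correlations, 6 sets of at least 3 genes with an average correlation of at least 0.6 held 51 of them, and 29 stood in no set. The grouping was made after the values were seen, the arrays share their plants and RNA between genes, and the correlations are a description. Of the 22 genes without overlap, 17 were among the 29 in no set.

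**Figure D2:**
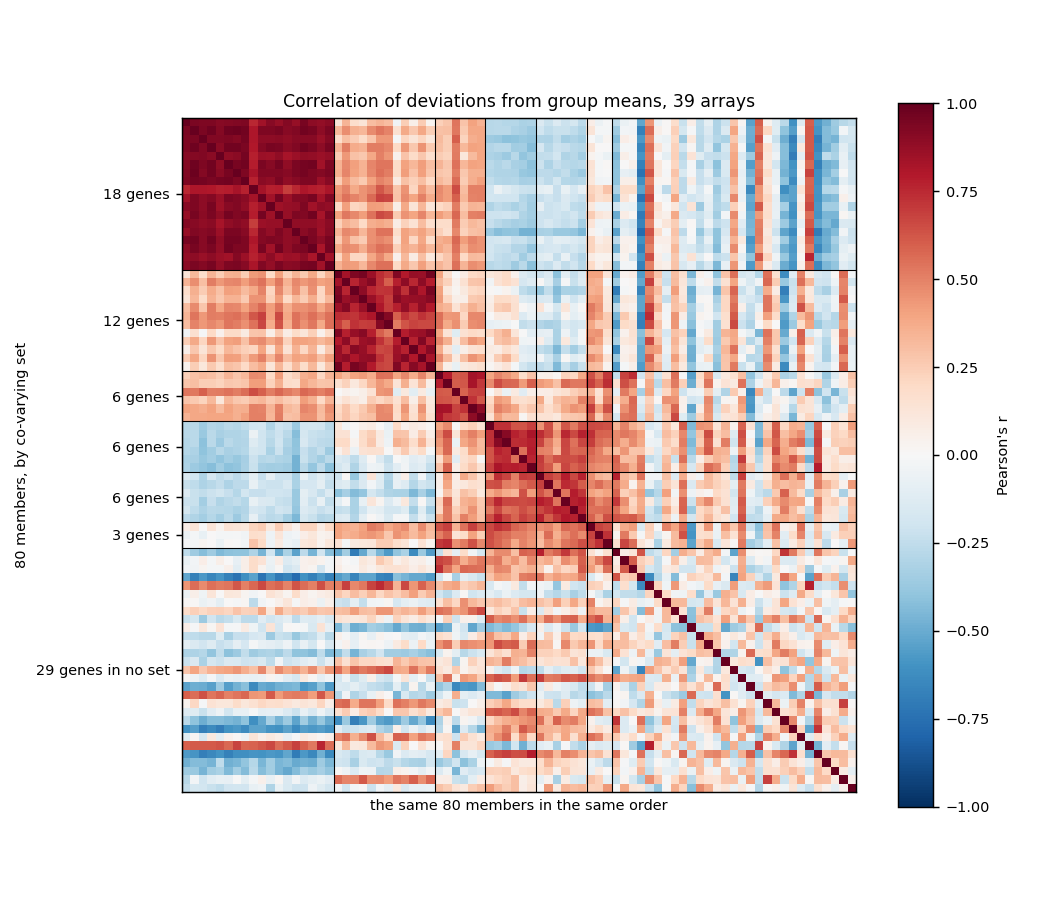
Pearson's r between each pair of the 80 genes, computed across the 39 arrays on values with each group's mean removed, with genes ordered by co-varying set and black lines between sets. The set of 18 genes and the set of 12 stand out as dark red squares. The 29 genes in no set stood alone or joined only in pairs.

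The largest set held 18 genes, 12 of them cell wall and surface proteins. With AT1G55990, AT1G74460, AT2G22510 and the peroxidases AT1G68850 and AT2G35380 it took in the acyltransferases AT5G12420 and AT1G78990 and the glycosyl hydrolase AT5G55180. Its median pairwise r was 0.91, and 0.92 after the mean of each replicate number was removed. The pair with the highest r was AT1G74460 and AT1G68850, at 0.98. Averaged over the 18 genes, the 36 arrays after time 0 ran from 3.26 to 7.02 with a median of 4.59, and the time 0 arrays read 3.34, 3.73 and 3.14. The 18 genes moved together by as much as 2.75 between replicates of 1 group, namely full medium at 6 h with 5.05, 4.27 and 7.02. 3 of the 36 arrays lay at or below the highest time 0 array. The mean of the 18 genes had r = -0.49 with the root marker EXPA7, 0.23 with RCA and 0.17 with LHCB4.1. The row outside the set that followed it most closely was AT5G37690, also a GDSL esterase or lipase, with r = 0.96 and differences of 1.14, 1.07 and 0.76 from time 0.

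The set of 12 genes held PORB, PIFI and AT5G02160 of the plastid group, CCL, BGLU44, AT1G15125, AT1G27020, AT4G12490, AT4G12500, AT2G45180, AT3G16530 and AT1G64710. Its median r of 0.80 came down to 0.33 once the mean of each replicate number was removed. Averaged over the 12 genes, the arrays after time 0 had means of 4.27, 4.18 and 6.06 for replicates 1, 2 and 3, against 2.70, 2.90 and 3.99 at time 0. Replicate 3 was thus high at time 0 as well as later, and the difference from time 0 within each replicate number was 1.57, 1.28 and 2.08. The set's mean followed the shoot markers RCA and LHCB4.1 with r = 0.91 for each, and its r with the root marker EXPA7 was -0.65. Outside the set 228 named rows followed it with r above 0.8, led by the plastid-encoded petB, petD, ndhC and ndhK. The r values with markers and outside rows kept the means of the replicate numbers, and replicate 3 was high in both markers. They were not recomputed without those means. RCA itself stood at 0.02, -0.37 and -0.55 from time 0 at 3, 6 and 9 h, and LHCB4.1 at 0.36, 0.38 and 0.11. Of the plastid-encoded rows, petB stood at 0.34, 0.27 and 0.27 and petD at 0.31, 0.26 and 0.24. ndhC stood at 0.39, 0.23 and 0.33 and ndhK at 0.50, 0.34 and 0.37. The part of green tissue in the level of the 12 genes was not tested.

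**Figure D3:**
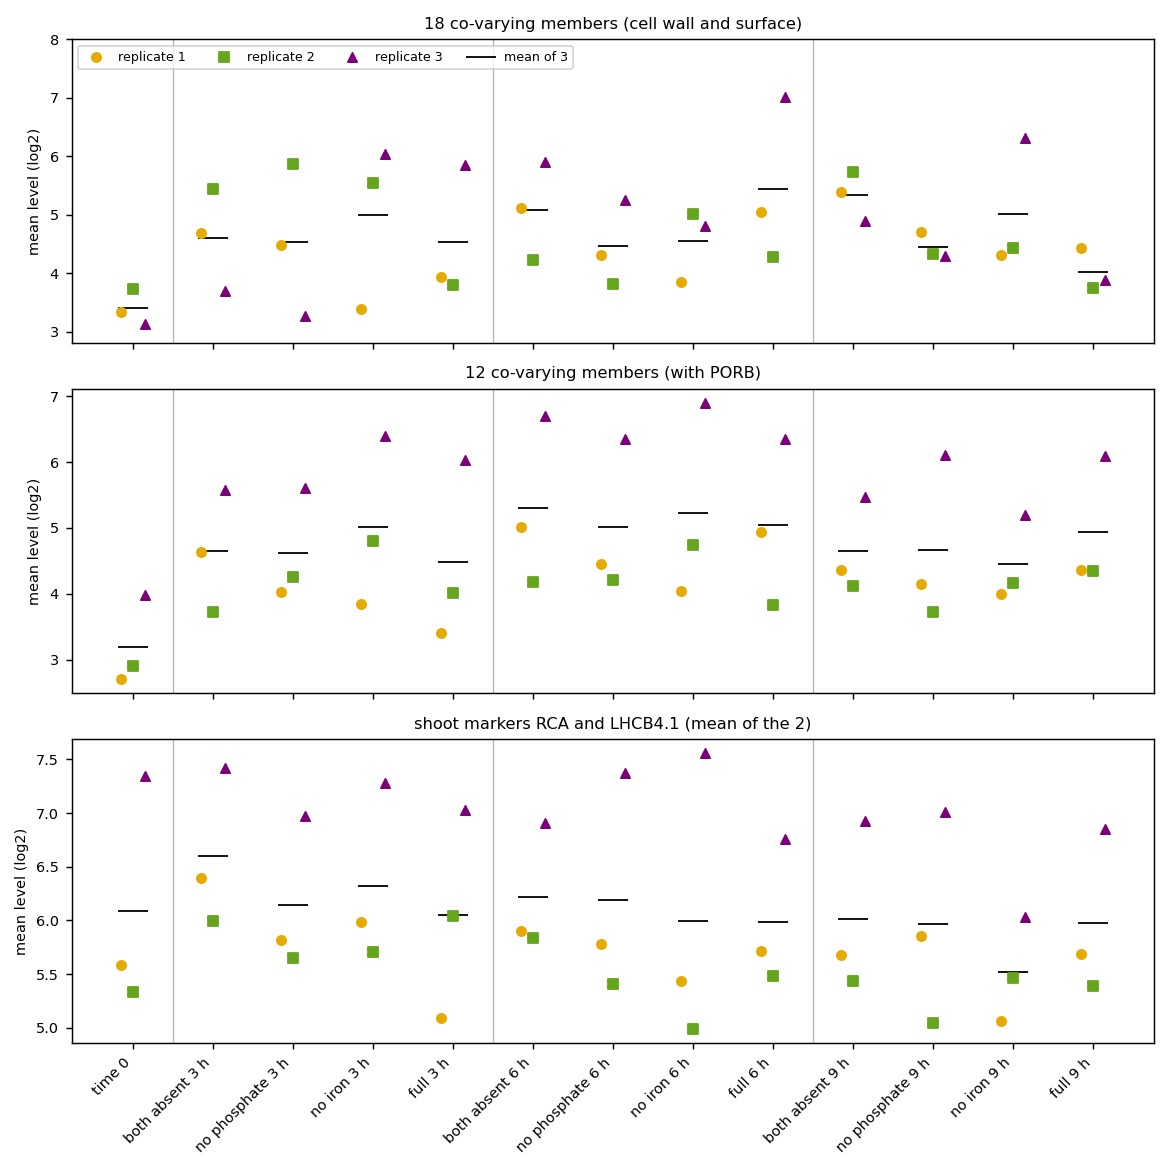
Mean log2 level per array of the 18 co-varying genes (top), of the 12 genes with PORB (middle) and of the shoot markers RCA and LHCB4.1 (bottom), with symbols for replicate numbers and bars for the means of 3, over the groups by time. Replicate 3 lies on top in every group of the middle panel and of the bottom panel, and no replicate number does so in the top panel.

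The other sets were smaller. A set of 6 held AT5G37450, AT5G44910, WRKY29, AT1G51890 and the related genes AT1G13480 and AT1G13550. Its time 0 arrays averaged 3.81, 5.21 and 3.87, with replicate 2 high, and the difference from time 0 within replicates 1, 2 and 3 was 1.59, 0.32 and 1.94. A set with AT3G51340, AT5G48430, AT2G44340, AT4G03460, AT1G44030 and AT2G36690 ran from 4.52 to 6.60 after time 0 and from 3.84 to 4.42 at time 0. A set with AT1G72416, AT3G42180, AT4G30670, AT1G05700, AT1G51830 and AT3G20380 ran from 6.21 to 7.60, against 5.45 to 6.14. In these sets of 6 with AT3G51340 and with AT1G72416 no array after time 0 reached the time 0 range of the set's mean. AT1G54950, AT2G15830 and AT3G46270 formed the last set. Over these smaller sets r with EXPA7 ran from -0.34 to 0.49, and r with RCA from -0.28 to 0.34.

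Set against time 0 of the same replicate number, 71 of the 80 genes were higher at all 3 times in all 3 numbers. The same levels chose the genes and the share over all rows was not computed, so nothing is read from that count. The median of the genes' mean differences was 1.29, 0.90 and 1.52 in replicates 1, 2 and 3. The exceptions were AT5G37450, AT1G49960, AT2G28720, AT1G13480, AT4G36610, AT1G51890, AT3G20380, AT3G46270 and AT2G03200. AT1G13480 had 3.27, 5.54 and 3.42 at time 0, and 7 of the 36 later arrays lay above all of them. Without time 0 replicate 1, 2 or 3 the smallest minimum rise among the 80 was 0.54, 0.45 or 0.37, again from levels that chose the genes. The same rule would then take 66, 55 or 55 of the 80 again.

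The choice of genes used means over the 4 media, and differences between media within a time are orthogonal to those means. Full independence from the choice also needs arrays of equal, normal spread, which was not tested. The media differences were tested with limma in 1 fit of the 39 arrays. A gene was called where its p, adjusted by Benjamini-Hochberg across the 28501 rows, was under 0.05. The question was whether the genes stood at different levels when phosphate, iron or both were absent. In 17 of 18 comparisons 0 of the 80 genes were called, and in the other 1 was. The comparisons with full medium share its arrays. The smallest adjusted p of a member in any of the 17 was 0.149.

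For phosphate, the background of called rows was 0% at 3 h and at 6 h and in the mean of the times for the medium without phosphate against full medium, and 0.00702% at 9 h. At an unadjusted p under 0.05 stood 0, 2 and 0 of the 80 genes at 3, 6 and 9 h and 3 in the mean, against 4.51%, 4.18%, 1.98% and 3.55% of all rows. For iron against full medium it was 0% at 3, 6 and 9 h and 0.0105% in the mean, with 1, 2, 2 and 2 genes under an unadjusted 0.05, against 3.32%, 3.77%, 2.37% and 2.67% of all rows. For both absent against full medium it was 0.0246% at 3 h, 0% at 6 h, 0.00351% at 9 h and 0.0105% in the mean, with 9, 0, 9 and 6 genes under an unadjusted 0.05, against 4.61%, 2.98%, 3.83% and 4.33% of all rows. The 9 genes at 9 h, 11.3% of the set against 3.83% of all rows, included AT1G55990, AT2G22510, AT5G12420, AT4G33610, AT1G68850, AT5G07475 and AT4G36610 of the co-varying set of 18, which do not count as separate evidence.

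Over the 3 times, phosphate absent against phosphate present called 0 of the 80 with a background of 0.0947%, and iron absent against iron present called 0 with 0.0737%. Under an unadjusted 0.05 stood 7 genes for phosphate, 8.75% of the set against 5.47% of all rows, and 9 for iron, 11.3% against 3.96%. For no phosphate against no iron 12 stood there, 15% against 5.0%. Co-varying genes in these counts are not separate evidence, and all rows include those below the minimum mean of 3. The phosphate by iron interaction called 0 with a background of 0% and 3 genes under an unadjusted 0.05, against 2.36% of all rows. The test for any difference between media called 0 with 0.0702%, and 4 genes stood under an unadjusted 0.05, against 3.06% of all rows. The test for a difference that changes with time called 0 with 0%, and 0 genes stood under an unadjusted 0.05, against 2.45%. The median difference of the 80 genes stayed within 0.26 of 0 in every contrast. It was furthest from 0 for no iron against full medium at 3 h, at 0.25 with 61 genes higher and 19 lower. Over all rows the median there was -0.01, and 47.2% of rows were higher. Co-varying genes are not separate evidence in that count either. For a single gene the 95% interval reached 0.504 to either side at the median for a contrast averaged over the times and 0.873 within a time.

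**Figure D4:**
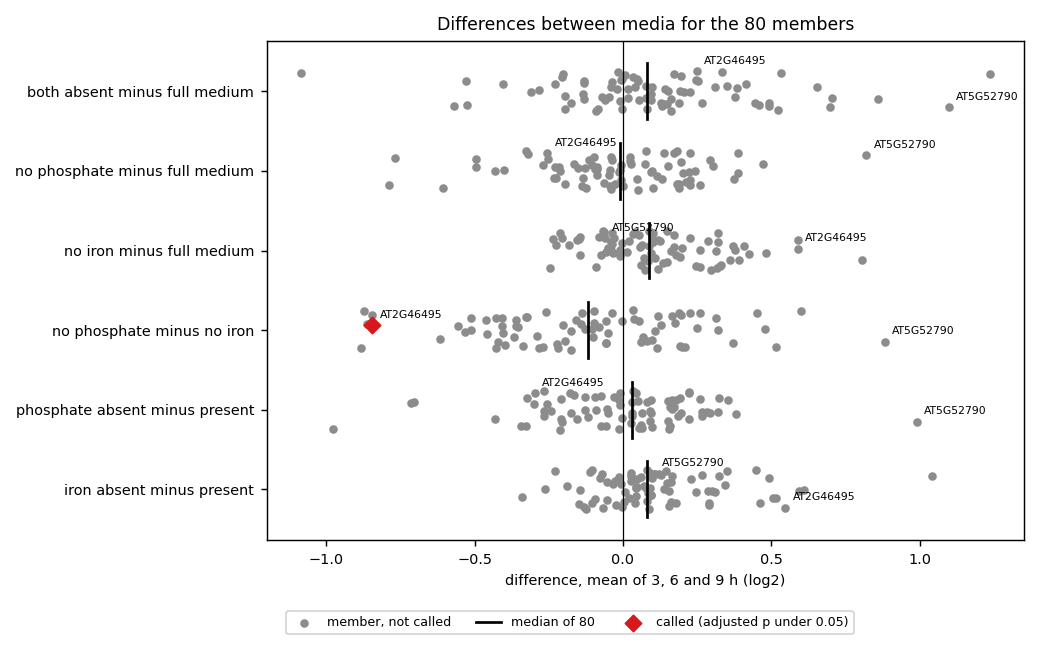
Difference between media for each of the 80 genes on the log2 scale, averaged over 3, 6 and 9 h, with 1 row for each of 6 comparisons, a black line at the median of the 80 and a red diamond for the gene called at an adjusted p under 0.05. Medians lie close to 0, and only AT2G46495 was called, 0.84 lower without phosphate than without iron.

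The call was AT2G46495, a RING finger protein, in the medium without phosphate against the medium without iron over the 3 times. At 3 h it had 4.15, 3.87 and 4.73 without phosphate, against 5.64, 4.42 and 5.09 without iron. At 6 h the values were 3.44, 4.18 and 3.78 without phosphate, against 4.46, 4.90 and 4.49 without iron. At 9 h they were 4.07, 4.40 and 3.75 without phosphate, against 4.63, 4.57 and 5.76 without iron. The groups overlapped at 3 h and not at 6 and 9 h. The difference was -0.84 (SE 0.18, 95% interval -1.21 to -0.48, limma adjusted p = 0.0478), where 0.123% of rows were called. With both absent it averaged 5.32 ± 0.14 at 3 h, 4.17 ± 0.31 at 6 h and 4.15 ± 0.12 at 9 h (SD, n = 3 each). On full medium it averaged 4.61 ± 0.45 at 3 h, 4.09 ± 0.27 at 6 h and 4.19 ± 0.30 at 9 h. These levels lay mostly between those of the single deprivations, apart from both absent at 3 h, which was higher than without iron.

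Against full medium neither single deprivation passed for AT2G46495, with -0.25 (SE 0.18) without phosphate and 0.59 (SE 0.18) without iron over the times, both with a limma adjusted p of 1.00. Iron absent against present differed by 0.55 (SE 0.13, limma adjusted p = 0.149), which was called, among the settings run, only without replicate 2 of no iron at 3 h. The call of -0.84 was near the threshold. It was lost in 27 of the 39 fits that left out 1 array, with adjusted p from 0.0130 to 0.134 over the 39. It was kept without time 0 replicate 1 or 2, full medium replicate 1 or 3 at 3 h or at 6 h, no iron replicate 2 at 3 h, no iron replicate 1 or 2 at 9 h, no phosphate replicate 3 at 3 h, or no phosphate replicate 2 at 6 h or 9 h. It was lost when the 2 media were fitted alone (limma adjusted p = 0.253) and after quantile normalization (0.0558). At 3, 6 and 9 h AT2G46495 averaged 1.80, 1.17 and 1.35 above time 0 over all media. The smallest rise of its group means over the times was 1.08 on full medium and 0.80 without phosphate. It was 1.61 without iron and 1.15 with both absent. These levels also chose the gene.

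**Figure D5:**
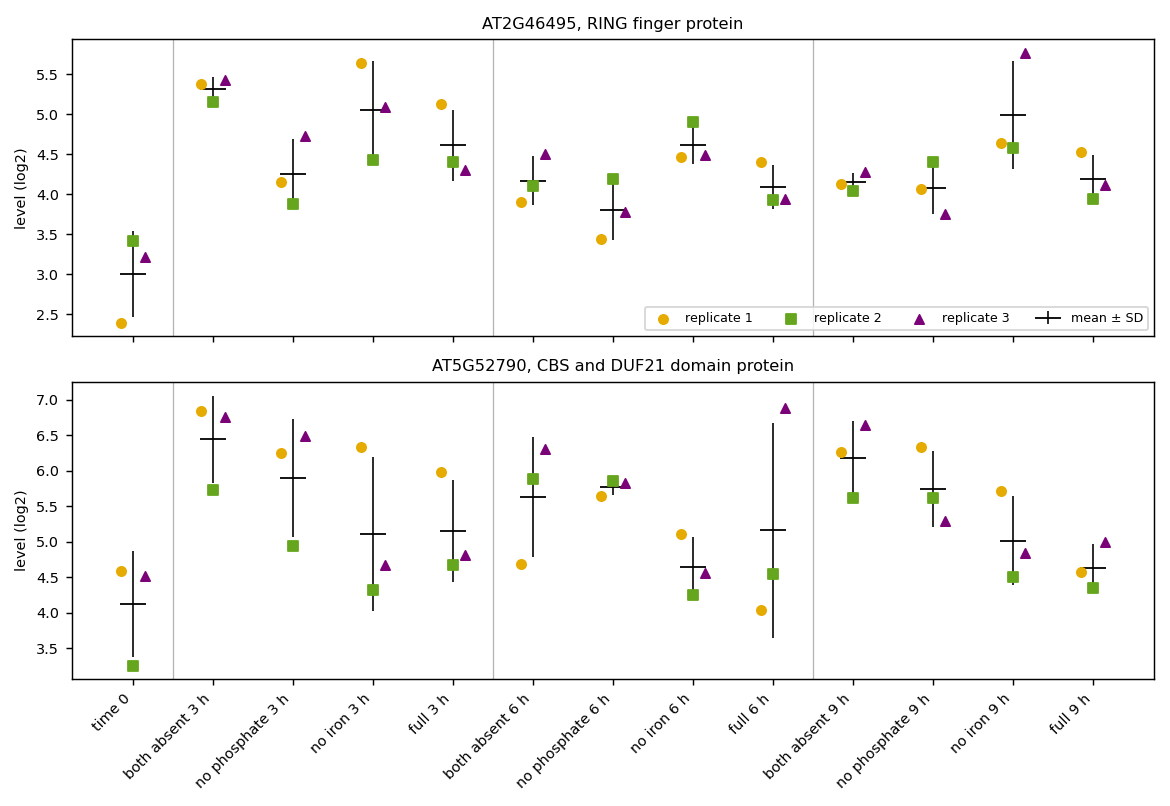
Log2 level of AT2G46495 (top) and AT5G52790 (bottom) in each array, with symbols for replicate numbers and the mean ± SD of 3, over time 0 and the 4 media at 3, 6 and 9 h. AT2G46495 was lower without phosphate than without iron at each time, and AT5G52790 had means above 5.6 in both media without phosphate and means up to 5.2 in the other media.

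AT5G52790, a membrane protein with CBS and DUF21 domains, stood highest in the media without phosphate. With both absent it had 6.84, 5.73 and 6.76 at 3 h, 4.69, 5.89 and 6.31 at 6 h and 6.27, 5.62 and 6.65 at 9 h. Without phosphate alone it had 6.25, 4.95 and 6.49, then 5.64, 5.86 and 5.83, then 6.33, 5.61 and 5.29. Without iron it had 6.34, 4.32 and 4.67 at 3 h, 5.11, 4.26 and 4.56 at 6 h and 5.71, 4.51 and 4.84 at 9 h. On full medium it had 5.98, 4.67 and 4.82, then 4.05, 4.55 and 6.89, then 4.57, 4.35 and 5.0. At each time the phosphate-free arrays overlapped the others. Phosphate absent against present differed by 0.99 (SE 0.24, 95% interval 0.50 to 1.48, limma adjusted p = 0.149), which did not pass. It passed with the replicate number as a block (limma adjusted p = 0.0340) and with array weights (difference 1.16, limma adjusted p = 0.00726). Without replicate 3 of full medium at 6 h, which read 6.89, the difference was 1.13 and passed (limma adjusted p = 0.00922).

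AT1G55990, the glycine-rich protein, showed the largest difference within a time. At 9 h it had 7.01, 7.05 and 6.15 with both absent, against 4.70, 3.51 and 3.43 on full medium, with no overlap. That difference was 2.86 (SE 0.74, limma adjusted p = 0.912) and did not pass. Iron absent against present differed by 1.04 (SE 0.30, limma adjusted p = 0.599) over the times. The receptor kinase AT5G37450 was at the other end, with phosphate absent against present at -0.98 (SE 0.30, limma adjusted p = 0.416) and both absent against full medium at -1.08 (SE 0.42, limma adjusted p = 1.00). Neither passed.

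For the 17 cell wall and surface genes the median difference from full medium at 3 h was 0.09 with both absent, -0.08 without phosphate and 0.50 without iron. At 6 h it was -0.36 with both absent, -0.99 without phosphate and -0.69 without iron, and at 9 h it was 1.15, 0.28 and 0.93 in the same order. Full medium is shared by all of these, and the 18 co-varying genes averaged 5.05, 4.27 and 7.02 there at 6 h and 4.43, 3.76 and 3.88 at 9 h. With both absent they averaged 5.11, 4.22 and 5.91 at 6 h and 5.39, 5.74 and 4.90 at 9 h. The ranges overlapped at 6 h and not at 9 h, and 0 of the 17 genes were called at either time (limma). The test for a difference between media that changes with time called none of them either, and none stood under an unadjusted 0.05.

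Other genes of the processes that a move between media could touch were read from 14 lists. Of them 0 genes of abscisic acid and of touch and wounding were on a named row, and no list held any of the 80. Of 15 cold genes 9 were measured, with a median difference of 0.04, 0.14 and 0.12 from time 0 at 3, 6 and 9 h. They included the left-out AT4G33980, at 1.70, 3.13 and 2.97. COR15A, COR15B, KIN1, KIN2 and COR27 had overall means below 3, where levels are the least certain. For 4 of 11 ribosome biogenesis genes the median difference was 0.09, 0.12 and 0.15, and for 6 of 23 iron genes -0.09, -0.08 and 0.04. For 2 of 8 type A cytokinin regulators it was -0.06, -0.01 and 0.01. Both of these and the iron genes BHLH101, IMA1, IMA2 and S8H also averaged below 3 over all arrays. So did LPR1 of the phosphate list and AT3G10040 of the low oxygen list. The clock list (GI, 1 of 22), the low oxygen list (2 of 13 with PDC2), the heat list (DREB2C, 1 of 12) and the starch list (2 of 14 with DPE1) rest on genes that the rule left out. So in part do the cold list, the nitrate and sulfur list (2 of 13) and the phosphate list (2 of 20). Of the nitrate and sulfur genes HHO2 stood at -0.15, -0.53 and -0.53 from time 0 and the left-out AT1G04770 at 1.22, 1.40 and 1.49. The phosphate genes were LPR1, at 0.03, 0.18 and 0.56, and the left-out LPR2, at 0.97, 1.04 and 0.95. These lists are too thinly measured to set beside the 80 genes.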

How the data were processed

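Root RNA was amplified and labelled by the whole-transcript protocol from 100 ng per sample, per the labels' protocols, and measured on 39 arrays. The authors deposited 1 normalized log2 value per array and row, for which the submitters' processing notes name GCRMA, Transcriptome Analysis Console and Affymetrix Expression Console without a version. GCRMA subtracts a background modelled on probe sequence and summarises probes, and low levels are the least certain. The log base is not stated and was taken as 2 from the range of the values. Rows were named through the platform annotation, in which 16746 rows have 1 gene, 758 have several and 10997 have none, and RefSeq matched 16601 of the first. No value column lacked a sample.

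Media were compared with R 4.3.3 and limma 3.58.1 (lmFit, then eBayes, 1 mean per group, all 39 arrays), and the fit was tested on simulated data. Intervals are 95%. The number of arrays limits the precision. Alternatives were quantile normalization, a minimum mean of 3, trended and robust eBayes, array weights, the compared groups alone, a replicate block and leaving out each array. Same-numbered arrays deviated together in every pair (r above 0.1) in 5 of 9 comparisons with full medium (at 6 and 9 h without phosphate, at 3 and 6 h without iron and at 9 h without both), where the block changed no count. Over all rows r averaged 0.26 for the same number and -0.13 for other numbers.

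The 80 genes, lists and tests were chosen with earlier results of these data known. The genes named are the 15 with the highest minimum rise, those called or with the lowest p between media, the extremes of each medium comparison, list members and those at the edge of the set. Other genes, the families and the co-varying sets were picked with the values in view. No sequence is shown and promoter words were not searched, since no sequence was used here.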

Additional observations from a re-analysis of the deposited data

Results flagged for a closer look

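Rows with no gene named are not among the 80 genes, but 106 of the 6964 such rows with an overall mean of at least 3 stood further above time 0 at every time than the last of the 80, and so did 1 row with several genes. The highest was transcript cluster 13350088, which ran from 5.58 to 6.96 after time 0, against 2.11 to 2.60 at time 0, with a minimum rise of 3.58. Cluster 13530385 ran from 6.35 to 7.87, against 4.39 to 4.54, with a minimum rise of 2.58. What these rows measure was not determined.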

How the results depend on the processing

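The count of genes called between media was the same in all settings for 15 of 18 comparisons. For no phosphate against no iron, AT2G46495 was no longer called (0 genes) after quantile normalization or with the compared groups alone, and the count was 0 to 1 when single arrays were left out. For phosphate absent against present, array weights called 1 gene, AT5G52790 (limma adjusted p = 0.00726), and leaving out single arrays gave 0 to 1. The replicate block also called 1 gene there, AT5G52790 (limma adjusted p = 0.0340), and changed no other count. Iron absent against present gave 0 to 1. The causes were not tested. Of 15 differences of named genes 0 were reversed in any setting. The rule took 55 to 66 of the 80 genes again when time 0 arrays or replicate numbers were left out and 58 to 78 under other processing, with 58 for full medium alone. The median minimum rise ran from 0.93 to 1.17, and 21 to 44 genes were highest at 6 h, when arrays or replicate numbers were left out. The same count by role group without each replicate number was added after seeing the data. Promoter words were not run.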
